A study of Mus musculus with 114 samples.

Results

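The enzymes that break down the branched-chain amino acids leucine, isoleucine and valine were followed in adipocytes of lean and obese mice. The 10 genes were chosen by symbol, by a rule that used no values, although earlier results of these data were known. They are Bcat2, Bckdha, Bckdhb, Dbt, Ppm1k, Bckdk, Mccc1, Mccc2, Ivd and Aldh6a1, out of 29132 genes with a value. All 10 passed the filter on low values. RNA was sequenced from perigonadal adipocytes of male C57BL/6J mice given either control chow (CD) or food high in fat (HFD), both begun at 6 weeks of age and continued for 8, 20 or 34 weeks. There were 38 mice, 6 for each diet and time except for 8 in the CD group of 34 weeks. The mice carried no engineered allele according to the sources used here, and all were fasted before the tissue was taken. The adipocyte fraction was what floated after collagenase digestion of the fat pad, so that it was not sorted by a marker, and time on diet could not be told apart from age.

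Branched-chain amino acid breakdown takes place in mitochondria. BCAT2, the mitochondrial aminotransferase, removes the amino group from all 3 amino acids, and the branched-chain ketoacid dehydrogenase complex (BCKDH) then commits the ketoacids to oxidation. The complex is built from the E1 subunits BCKDHA and BCKDHB, the E2 subunit DBT and the shared E3 subunit DLD. The kinase BCKDK inhibits it by phosphorylation and the phosphatase PPM1K reverses this. Further enzymes act on single branches, IVD and the MCCC1 and MCCC2 subunits of methylcrotonyl-CoA carboxylase on leucine, and ALDH6A1 on valine. White adipose tissue is known as a site of this pathway, and differentiated adipocytes use its carbon for acetyl-CoA and lipid.

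Relative to the reads of each library, transcripts of these enzymes were lower in HFD than in CD mice at every time. At 8 weeks 9 of 10 passed the test as lower, at 20 weeks 10 of 10 and at 34 weeks 8 of 10, and none passed as higher. The count at 34 weeks was 5 without HFD mouse 2 or without HFD mouse 3, and 4 in a fit of the 34 week mice alone. A gene was said to pass, or to be called, when limma's two-sided test on log2(CPM + 1) gave a Benjamini-Hochberg adjusted p under 0.05 over the 10343 genes tested, where CPM is reads scaled to 1000000 reads on genes in a mouse. Of all genes tested, 15.1%, 18.7% and 15.7% were called lower at 8, 20 and 34 weeks. The median log2 difference of the 10 genes was -0.56, -0.95 and -0.52 at the 3 times, whereas the median over all genes tested was 0.11, 0.14 and 0.07. At 20 weeks no HFD mouse reached the lowest CD mouse for any of the 10 genes, a separation seen in that direction in 11.1% of all genes tested. The separation held for 3 of the 10 at 8 weeks (7.14% of all genes) and for 1 at 34 weeks (0.986%). These directions are relative to the whole library. When each mouse was instead centred on 14 adipocyte markers, which themselves fell with HFD, the median of the 10 genes became -0.07, 0.07 and 0.43 and that of all genes tested 0.60, 1.16 and 1.02, since centring moves all genes alike. At 34 weeks 9 of the 10 genes were then called higher, where 93.1% of all genes were called in either direction.

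Each mouse had 9275711 to 15480388 reads on genes, and the 10 genes had between 87 and 21032 reads in a mouse, the lowest for Ppm1k in HFD mice at 34 weeks (87 to 114 reads). All HFD mice at 8 weeks were more deeply sequenced (at least 13201234 reads) than all CD mice (at most 12611013), and the part of depth in the 8 week results was not tested. Reads carry no molecular identifiers, so this precision covers counting error only. Each of the 14 adipocyte markers had reads in every group, and their summed level had a median of 108000, 111000 and 79600 CPM in CD and 79800, 58500 and 53100 CPM in HFD mice at 8, 20 and 34 weeks. The summed level of the 13 macrophage markers measured ran from 347 to 1690 CPM in CD and 994 to 2960 CPM in HFD mice at 8 weeks, from 935 to 3110 and 4040 to 8450 CPM at 20 weeks, and from 945 to 10500 and 4550 to 13100 CPM at 34 weeks. The sums did not overlap at 20 weeks. Of 12 macrophage markers tested 7, 9 and 11 were called higher at 8, 20 and 34 weeks, while at 20 weeks Cd163 was called lower (-1.35, adjusted p = 0.0113) and Mrc1 (0.99) and Cd14 (0.36) did not pass. Of 8 lipid-associated macrophage markers 7, 7 and 6 were called higher and 0, 1 and 0 lower, of 7 endothelial markers 7, 5 and 5, of 7 progenitor and fibroblast markers 4, 7 and 3, of 3 mesothelial markers 2, 0 and 0, and of 2 erythroid markers 1, 0 and 2. No T cell, B cell or epididymis and testis marker passed the filter on low values. Their part in the results on the enzymes was not tested. In bulk RNA, fewer adipocytes and less transcript in each adipocyte cannot be told apart.

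**Figure D1:**
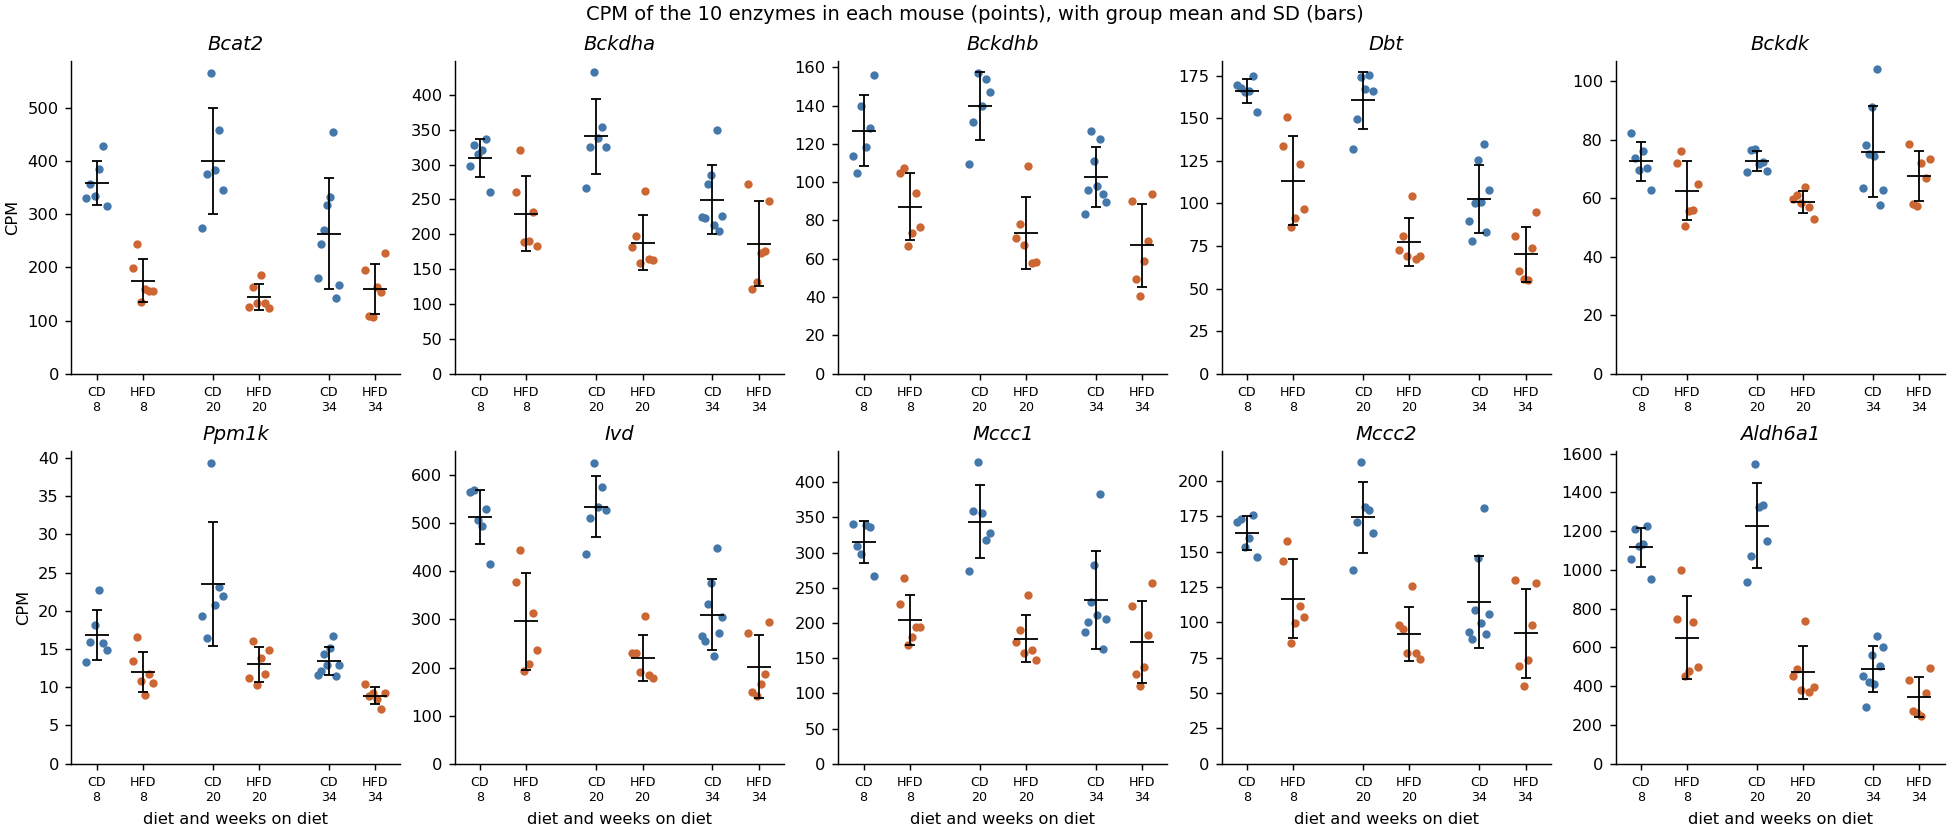
CPM of each of the 10 genes (vertical axes, linear from 0) in each of the 38 mice, by diet (CD blue, HFD orange) and weeks on diet; black bars give the group mean and SD. At 20 weeks the CD and HFD points do not overlap for any gene, and at 34 weeks they are apart for Ppm1k alone.

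Bcat2 (chromosome 7, 45568967 to 45589710, GRCm38), the first enzyme of the pathway, had the largest diet difference of the 10 genes at all 3 times. At 8 weeks it ran from 316 CPM over a median of 346 to 429 in CD mice and from 134 over 158 to 244 in HFD mice, and the diets did not overlap. The means were 359 ± 42.1 and 175 ± 40.1 CPM (SD, n = 6 each), a log2 difference of -1.05 (SE 0.21, adjusted p = 0.000265). At 20 weeks the CD mice spread from 274 to 565 CPM around a median of 379, and the HFD mice from 125 to 186 CPM around 133. The difference was then -1.45 (SE 0.21, adjusted p = 1.425e-06), a level of 0.367-fold. At 34 weeks the diets overlapped, with 142 to 455 CPM in CD and 108 to 227 CPM in HFD mice, and the difference was -0.68 (SE 0.20, adjusted p = 0.00741). The CD mice of 34 weeks varied most, with a coefficient of variation of 39.5% against 11.7% in the CD mice of 8 weeks. In a fit of the 34 week mice alone the difference kept its size but not its call (adjusted p = 0.0693).

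The BCKDH subunit genes Dbt, Bckdhb and Bckdha were lower with HFD at each time, with smaller estimates than Bcat2. Dbt (chromosome 3, 116513070 to 116549981), which carries the lipoyl arm of the complex, was the most uniform gene in young CD mice, with 153 to 175 CPM around a median of 167. HFD mice at 8 weeks had 85.9 to 151 CPM around 110 (mean 113 ± 26.1, n = 6), and none reached the CD range. Its log2 difference was -0.58 (SE 0.14, adjusted p = 0.00163) at 8 weeks. At 20 weeks CD mice had 132 to 175 CPM and HFD mice 67.5 to 104 CPM, a difference of -1.06 (SE 0.14, adjusted p = 3.64e-07) and the lowest adjusted p of the 10 genes at that time. At 34 weeks it was -0.55 (SE 0.13, adjusted p = 0.00151), with 77.7 to 135 CPM in CD and 54.9 to 95.1 CPM in HFD mice.

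Bckdhb (chromosome 9, 83925111 to 84124240), the E1 beta subunit, moved from a mean of 127 ± 18.6 CPM in CD to 87.3 ± 17.3 CPM in HFD mice at 8 weeks, from 139.8 ± 17.6 to 73.3 ± 18.8 at 20 weeks and from 103 ± 15.7 (n = 8) to 66.9 ± 21.6 at 34 weeks. The log2 differences of -0.55, -0.95 and -0.66 had adjusted p of 0.00855, 1.49e-05 and 0.00127. Bckdha (chromosome 7, 25629852 to 25658782), the E1 alpha subunit that the kinase phosphorylates, differed by -0.46, -0.86 and -0.46 (adjusted p = 0.0254, 5.52e-05 and 0.0175). It ran from 261 to 336 CPM around a median of 318 in CD and from 183 to 321 CPM around 211 in HFD mice at 8 weeks, from 266 to 433 CPM around 332 and 159 to 262 CPM around 174 at 20 weeks, and from 204 to 349.7 CPM around 226 and 121 to 272 CPM around 174 at 34 weeks. The diets thus overlapped at 8 and 34 weeks, where the call rested on single mice. At 8 weeks it was lost without HFD mouse 3, 4 or 6 (adjusted p = 0.0662, 0.0637 and 0.0685), and at 34 weeks without HFD mouse 2 or 3 (adjusted p = 0.08 and 0.0715). In the gene models 61.7% of the exon bases of Bckdha lie opposite exons of B3gnt8, which had 0 to 10.3 CPM, and the sources used here do not say whether reads were counted by strand.

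The complex is controlled by a kinase and a phosphatase. Bckdk (chromosome 7, 127904073 to 127909664), the inhibitory kinase, had the smallest difference of the 10 genes at each time, with -0.22 (SE 0.11, adjusted p = 0.0948) at 8 weeks, -0.30 (SE 0.11, adjusted p = 0.0183) at 20 weeks and -0.15 (SE 0.10, adjusted p = 0.235) at 34 weeks. At 20 weeks both diets were narrow, with 69.1 to 77.0 CPM around a median of 72.1 in CD and 53.0 to 63.9 CPM around 59.0 in HFD mice, so that the groups did not overlap although the level was still 0.811-fold. At 8 weeks Bckdk was called with TMM factors (-0.33, adjusted p = 0.0317), with size factors (-0.34, adjusted p = 0.0349), with array weights (-0.29, adjusted p = 0.00127) and without HFD mouse 2 (-0.28, adjusted p = 0.0373). Centred on the adipocyte markers its difference was 0.27 at 8 weeks (adjusted p = 0.0928), 0.72 at 20 weeks and 0.80 at 34 weeks, and the latter values were called.

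Ppm1k (chromosome 6, 57506502 to 57535552), the activating phosphatase, was the least abundant of the 10 genes. CD mice had 13.3 to 22.7 CPM around a median of 15.9 at 8 weeks and HFD mice 9.05 to 16.5 CPM around 11.3, a log2 difference of -0.45 (SE 0.15, adjusted p = 0.0144). At 20 weeks the ranges were 16.5 to 39.3 CPM in CD and 10.3 to 16.1 CPM in HFD mice, and the difference was -0.77 (SE 0.15, adjusted p = 5.54e-05), or -0.62 at its smallest with a mouse left out. At 34 weeks Ppm1k alone separated the diets, with 11.5 to 16.8 CPM in 8 CD mice and 7.15 to 10.4 CPM in 6 HFD mice, a difference of -0.54 (SE 0.14, adjusted p = 0.00277). Its coefficients of variation at that time, 13.8% in CD and 12.3% in HFD mice, were the lowest of the 10 genes.

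Ratios of transcripts within a mouse do not depend on how libraries are scaled. The 5 ratios here were chosen after the values were seen, so they are given as a description and no p is drawn from them. The kinase to substrate ratio, Bckdk over Bckdha, was 0.235 ± 0.0234 in CD and 0.278 ± 0.0426 in HFD mice at 8 weeks (SD, n = 6 each), 0.217 ± 0.0278 and 0.319 ± 0.0419 at 20 weeks (n = 6 each), and 0.305 ± 0.0313 (n = 8) and 0.383 ± 0.0764 (n = 6) at 34 weeks. At 20 weeks 5 of 6 HFD mice lay above all CD mice, and at 8 and 34 weeks 2 and 4 of 6 did. The kinase to phosphatase ratio, Bckdk over Ppm1k, was 4.46 ± 0.968 and 5.28 ± 0.713 at 8 weeks, 3.32 ± 0.866 and 4.65 ± 0.833 at 20 weeks, and 5.66 ± 0.821 and 7.67 ± 1.19 at 34 weeks. Of 6 HFD mice 0, 3 and 4 lay above all CD mice at the 3 times. The ratio of Mccc1 to Mccc2, the subunits of 1 enzyme, had group means between 1.77 and 2.04, that of Bckdhb to Bckdha between 0.360 and 0.416, and that of Dbt to Bckdha between 0.390 and 0.538. The macrophage markers moved with diet at the same times, and their part in these ratios was not tested.

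**Figure D2:**
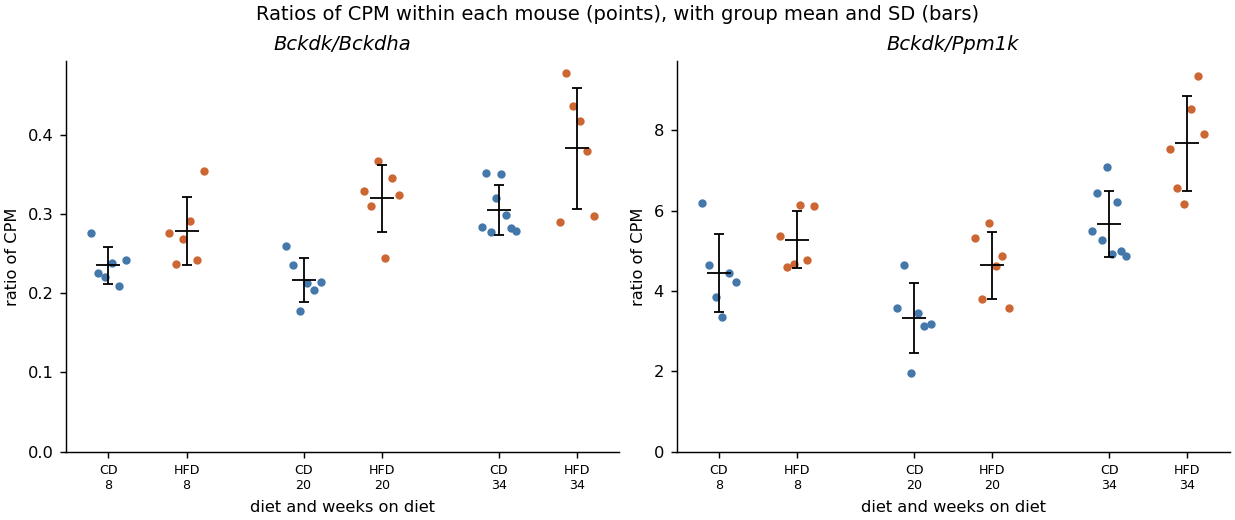
Ratio of the CPM of Bckdk to Bckdha (left) and to Ppm1k (right) in each mouse, by diet and weeks on diet, on linear axes from 0; black bars give the mean and SD. The group means at 20 weeks are 0.217 (CD) and 0.319 (HFD) for the first ratio and those at 34 weeks 5.66 (CD) and 7.67 (HFD) for the second, and CD and HFD mice overlap in both ratios at each time.

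Genes of the leucine branch were lower as well. Ivd (chromosome 2, 118861959 to 118882909), isovaleryl-CoA dehydrogenase, ran from 416 to 568 CPM around a median of 518 in CD and from 193 to 445 CPM around 275 in HFD mice at 8 weeks. Only HFD mouse 2 overlapped the CD range there, and the difference was -0.86 (SE 0.19, adjusted p = 0.000638). At 20 weeks the ranges were 436 to 626 and 178 to 306 CPM, and the difference was -1.29 (SE 0.19, adjusted p = 1.16e-06). At 34 weeks they were 224 to 448 and 140.2 to 295 CPM, and the difference was -0.64 (SE 0.18, adjusted p = 0.00432). Ivd was called at each time whichever mouse was left out, as were Bcat2, Bckdhb, Dbt and Ppm1k.

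The carboxylase subunits Mccc1 (chromosome 3, 35956292 to 36000694) and Mccc2 (chromosome 13, 99948532 to 100015639) differed by -0.63 and -0.51 at 8 weeks, -0.95 and -0.93 at 20 weeks, and -0.44 and -0.34 at 34 weeks. Mean levels of Mccc1 were 315 ± 29.6 and 204 ± 35.2 CPM at 8 weeks, 343 ± 51.8 and 178 ± 33.4 CPM at 20 weeks, and 233 ± 70.0 and 173 ± 58.5 CPM at 34 weeks. Mccc2, whose product forms the complex with that of Mccc1, had 163 ± 11.9 and 117 ± 27.7 CPM, 174 ± 24.95 and 91.7 ± 19.3 CPM, and 114 ± 32.4 and 92.2 ± 31.6 CPM at the same times. Both were called at 8 weeks (adjusted p = 0.00442 and 0.0238) and at 20 weeks (adjusted p = 2.87e-05 and 6.28e-05). At 34 weeks Mccc1 was called (adjusted p = 0.0284) and Mccc2 was not (adjusted p = 0.109). The call of Mccc1 was lost without CD mouse 4 or 6 or HFD mouse 2, 3 or 4 (adjusted p of at most 0.121), and Mccc2 was called without HFD mouse 1 or 6 (adjusted p = 0.0333 and 0.0347). At 8 weeks the call of Mccc2 was lost without HFD mouse 3 or 4 (adjusted p = 0.0757 and 0.0551).

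Aldh6a1 (chromosome 12, 84430717 to 84451024), the methylmalonate semialdehyde dehydrogenase of the valine branch, had the highest level per exon length in young CD mice. It ran from 952 to 1224 CPM around a median of 1128 in CD and from 452 to 1000 CPM around 616 in HFD mice at 8 weeks, a difference of -0.83 (SE 0.20, adjusted p = 0.00127). At 20 weeks CD mice had 938 to 1548 CPM and HFD mice 372 to 734 CPM, a difference of -1.40 (SE 0.20, adjusted p = 7.52e-07). At 34 weeks the CD mice had 292 to 657 CPM around 478 and the HFD mice 246 to 494 CPM around 321, a difference of -0.51 (SE 0.19, adjusted p = 0.0279). The CD mice of 34 weeks were thus all below the CD mice of 8 and 20 weeks. The 34 week call was lost without CD mouse 4, 6 or 8 or HFD mouse 2, 3 or 4 (adjusted p from 0.0524 to 0.0841). Exons of Bbof1 lie opposite 18.6% of the exon bases of Aldh6a1, and Bbof1 was not analysed here.

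**Figure D3:**
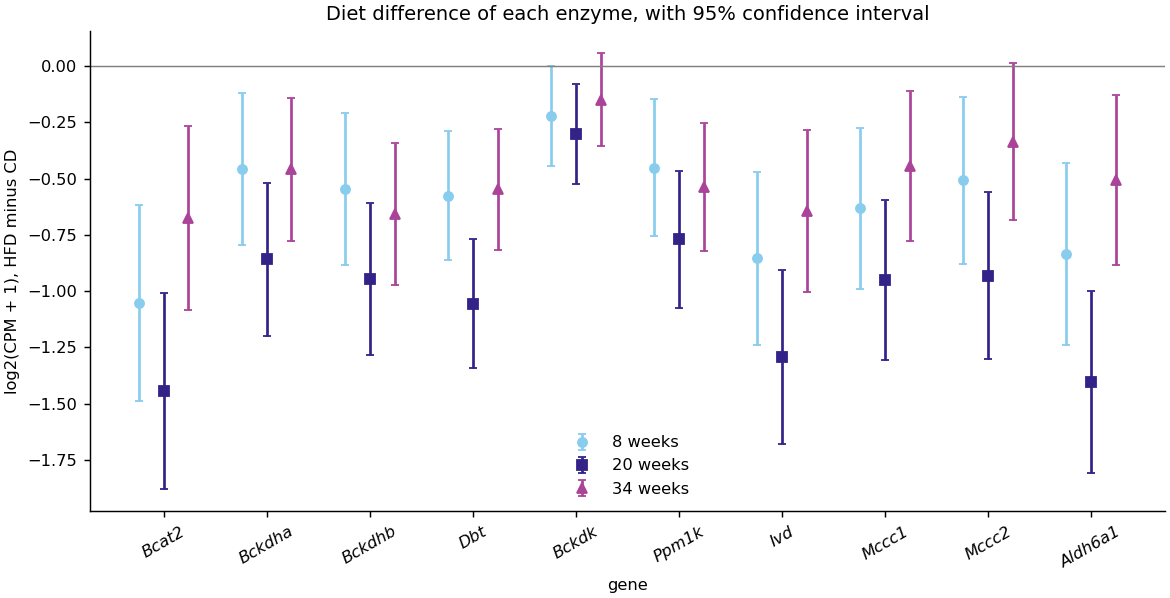
Difference in log2(CPM + 1) between HFD and CD mice (vertical axis) for each gene (horizontal axis) at 8, 20 and 34 weeks; bars are 95% confidence intervals of the limma fit. All 30 estimates lie below 0, from -1.45 (Bcat2 at 20 weeks) to -0.15 (Bckdk at 34 weeks); centring on the adipocyte markers, which moves all genes up alike, puts 3, 6 and 10 of the estimates above 0 at 8, 20 and 34 weeks.

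Per length, the levels in CD mice at 8 weeks spanned a wide range, given as CPM per kilobase of all annotated exon bases of a gene. Aldh6a1 (193 ± 17.6) and Bckdha (163 ± 14.4) were highest, followed by Ivd (93.3 ± 10.2) and Bcat2 (92.0 ± 10.8), which did not differ beyond their spread. Bckdhb (70.3 ± 10.3), Mccc2 (58.3 ± 4.24) and Dbt (49.6 ± 2.09) came next, and Mccc1 (28.8 ± 2.70), Bckdk (19.7 ± 1.79) and Ppm1k (2.79 ± 0.545) were lowest. Exon bases of all isoforms enter the length, which is 10952 bases for Mccc1 and 2802 bases for Mccc2, and isoform use was not measured.

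Time on diet was examined within each diet, first in CD mice. From 8 to 20 weeks none of the 10 was called by limma or by edgeR, with 1 gene (Ppm1k, 0.43) at an unadjusted p under 0.05, and 1.88% of all genes were called lower; 1 gene was called without CD mouse 2 of 20 weeks. From 8 to 34 weeks Bcat2, Dbt, Mccc1, Mccc2, Ivd and Aldh6a1 fell, 6 of 10 against 24.6% of all genes. From 20 to 34 weeks all but Bckdk fell, 9 of 10 against 21.4% of all genes, and this count was 9 whichever mouse was left out. Aldh6a1 fell by 1.23 on the log2 scale from 8 to 34 weeks (SE 0.19, adjusted p = 1.46e-06), Ivd by 0.75 (SE 0.18, adjusted p = 0.00046) and Dbt by 0.71 (SE 0.13, adjusted p = 2.61e-05). Bckdk differed by 0.04 over the same span (95% confidence interval -0.16 to 0.25). Centred on the adipocyte markers, the count from 20 to 34 weeks was 3, with 2 lower and 1 higher where 63.4% of all genes were called in either direction, and with the macrophage marker mean as a covariate it was 7, all lower. The CD mice of 34 weeks shared their columns with the diet comparison at that time, so that the age and diet differences are not independent.

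In HFD mice the same spans were compared. From 8 to 20 weeks Dbt alone fell, by 0.53 (SE 0.14, adjusted p = 0.00408), against 15.3% of all genes called lower, and 3 genes were called without HFD mouse 3 of 8 weeks and 2 without HFD mouse 4 of 20 weeks. From 8 to 34 weeks 5 fell (Aldh6a1, Dbt, Ivd, Bckdhb and Ppm1k) against 20.8% of all genes. That count was 2 without HFD mouse 1 or 2 of 8 weeks, 3 without HFD mouse 3 or 4 of 34 weeks and 8 without HFD mouse 6 of 34 weeks. From 20 to 34 weeks only Ppm1k fell, by 0.49 (SE 0.15, adjusted p = 0.0138), against 12.5% of all genes, and 2 genes were called without HFD mouse 6 of 34 weeks. Centred on the adipocyte markers, 4, 8 and 4 genes were called from 8 to 20, 8 to 34 and 20 to 34 weeks, all higher, where 58.1%, 83.3% and 32.2% of all genes were called in either direction.

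Whether the diet difference itself changed with time was tested with interaction terms. Between 8 and 20 weeks none of the 10 was called (4.49% of all genes in either direction), although all 10 estimates were negative, with Dbt (-0.48, adjusted p = 0.124) alone at an unadjusted p under 0.05. Between 8 and 34 weeks none was called (28.8% of all genes) and none had an unadjusted p under 0.05. Between 20 and 34 weeks Aldh6a1 was called, with a diet difference smaller by 0.90 at 34 weeks (SE 0.27, adjusted p = 0.0297), against 10.5% of all genes. All 10 estimates were positive there and 6 had an unadjusted p under 0.05. edgeR also called 0, 0 and 1 gene. With array weights 1, 5 and 8 genes were called instead. Centring on the adipocyte markers also called genes between 8 and 34 weeks. Shares of all genes called in the interactions under these 2 settings are not given here. The limma count of 1 between 20 and 34 weeks was not stable. It was 0 without CD mouse 3, 4 or 5 of 20 weeks, HFD mouse 3, 5 or 6 of 20 weeks or HFD mouse 6 of 34 weeks, 2 without HFD mouse 4 and 3 without CD mouse 1 of 20 weeks, and 5 without CD mouse 6 of 34 weeks. HFD mouse 4 of 20 weeks had the highest level of its group for 9 of the 10 genes.

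Later and shared enzymes of the pathway were mostly lower at 20 and 34 weeks too. Of 15 listed genes 14 were measured, all of which were tested, and 4, 12 and 9 were called lower and 1, 0 and 1 higher at 8, 20 and 34 weeks. Their median log2 difference was -0.19, -0.54 and -0.39. Acadsb, the short/branched-chain acyl-CoA dehydrogenase of the isoleucine branch, was called at each time (-0.76, -1.19 and -0.43, adjusted p = 0.000445, 4.85e-07 and 0.0218). Hibch, the valine branch hydrolase, was also called at each time (-0.47, -1.04 and -0.59, adjusted p = 0.0214, 3.61e-06 and 0.00299), as was Pccb, a propionyl-CoA carboxylase subunit (-0.50, -0.79 and -0.42). Dld, which BCKDH shares with pyruvate dehydrogenase, did not pass at 8 weeks (0.11, adjusted p = 0.43) and was lower at 20 and 34 weeks (-0.40 and -0.38, adjusted p = 0.00226 and 0.00352). Oxct1, which activates ketone bodies, was higher at 8 weeks (0.41, adjusted p = 0.00726).

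Among 5 amino acid carriers, 1 was called lower and 1 higher at each time. Slc43a1, a plasma membrane carrier of large neutral amino acids, fell from 92.5 ± 21.2 to 41.2 ± 19.2 CPM at 8 weeks, from 128 ± 49.0 to 33.7 ± 20.6 CPM at 20 weeks and from 45.2 ± 10.3 to 11 ± 3.92 CPM at 34 weeks (log2 differences -1.22, -1.97 and -1.97, adjusted p = 0.000636, 4.87e-07 and 1.55e-06). Slc7a8, another such carrier, was higher at 8 and 20 weeks (0.67 and 0.95), and Slc3a2, the heavy chain that pairs with it, at 34 weeks (0.70, adjusted p = 0.00057). Slc25a44, the mitochondrial branched-chain amino acid carrier, was called at no time (-0.07, -0.10 and -0.27, adjusted p = 0.702, 0.529 and 0.0689). Bcat1, the cytosolic aminotransferase, went the opposite way from Bcat2, from 5.40 ± 1.84 to 22.7 ± 10.6 CPM at 8 weeks, 5.47 ± 3.08 to 48.0 ± 16.4 CPM at 20 weeks and 13.8 ± 6.67 to 38.2 ± 11.2 CPM at 34 weeks (1.83, 2.96 and 1.48, adjusted p = 1.47e-05, 5.31e-09 and 0.000132). The macrophage marker sums moved in the same direction as Bcat1, and their part in its level was not tested. Of the listed regulators, Ppargc1a (-0.84 and -0.77) and Ppara (-0.80 and -0.52) were lower at 8 and 20 weeks, Klf15 (-1.22) and Pparg (-0.54) at 34 weeks, and Esrra was higher at 20 weeks (0.31, adjusted p = 0.0191).

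Other mitochondrial lists gave the setting for these values. Of 20 genes of pyruvate dehydrogenase and the tricarboxylic acid cycle, 2, 13 and 10 were called lower and 3, 1 and 0 higher, with a median difference of -0.05, -0.41 and -0.29. Of 17 genes of fatty acid oxidation 16 were tested, of which 0, 3 and 3 were called lower and 3, 2 and 2 higher, with a median of 0.21, -0.10 and -0.18. Cpt1a, which admits long-chain fatty acids to mitochondria, was higher at each time (0.80, 2.11 and 1.11). The median of the 10 branched-chain enzymes was below that of each of these lists at each time, which is a description of the lists and was not tested. The adipocyte markers had a median of -0.45, -0.78 and -0.64, with 2, 12 and 11 of 14 called lower and 1 (Cd36) higher at each time. Their spread was wide, from Cfd (-2.76, -4.03 and -2.70) to Cd36 (0.36, 0.63 and 0.62).

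**Figure D4:**
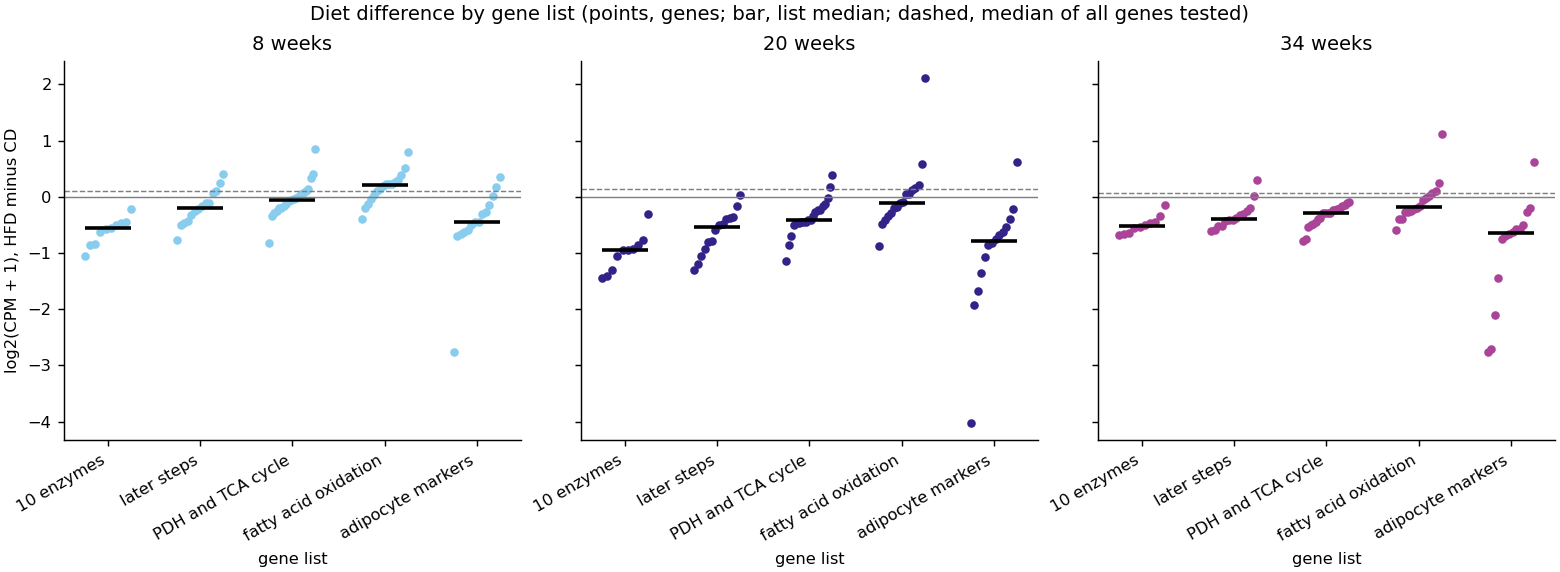
Difference in log2(CPM + 1) between HFD and CD mice for each gene (points) of 5 lists at 8, 20 and 34 weeks; bars are list medians, the dashed line is the median of all genes tested and the solid line is 0. At 20 weeks the 10 enzymes lie between -1.45 and -0.30 with a median of -0.95, beside -0.54 for the later steps, -0.41 for the TCA cycle list, -0.10 for fatty acid oxidation and -0.78 for the adipocyte markers; centring on the latter moves all genes alike, the 10 enzymes to a median of 0.07 and all genes tested to 1.16.

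The diet differences were therefore recomputed with the adipocyte and macrophage markers taken into account. Centred on the mean of the adipocyte markers, Bcat2, Ivd and Aldh6a1 were still called lower at 8 weeks (-0.56, -0.36 and -0.34, adjusted p = 0.00674, 0.00434 and 0.022) and at 20 weeks (-0.42, -0.27 and -0.38, adjusted p = 0.0198, 0.0138 and 0.00536), whereas Bckdk was called higher at 20 weeks (adjusted p = 2.5e-05). At 34 weeks all but Bcat2 (0.27, adjusted p = 0.102) were called higher, with 0.29 (Bckdhb) as the smallest and 0.80 (Bckdk) as the largest of them. The marker mean at that time was pulled down by Adrb3 (-2.77), Cfd (-2.70), Retn (-2.11) and Pck1 (-1.45), whereas the list median was -0.64 and Cd36 rose (0.62). Centring without the markers that fell most was not run. Under this centring 61.7%, 92.3% and 93.1% of all genes were called in either direction, and the medians of all genes tested stayed above those of the 10 enzymes at each time. With the macrophage marker mean as a covariate, Bcat2, Dbt, Ivd and Aldh6a1 were called lower at 8 weeks (-0.77, -0.32, -0.44 and -0.46), and Bcat2, Bckdhb, Dbt, Ppm1k, Ivd and Aldh6a1 at 20 weeks (-0.99, -0.58, -0.64, -0.52, -0.63 and -0.80). None was called at 34 weeks, where 9.08% of all genes in either direction still were. The covariate is itself tied to diet, so that diet and macrophage content cannot be told apart in this fit.

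**Figure D5:**
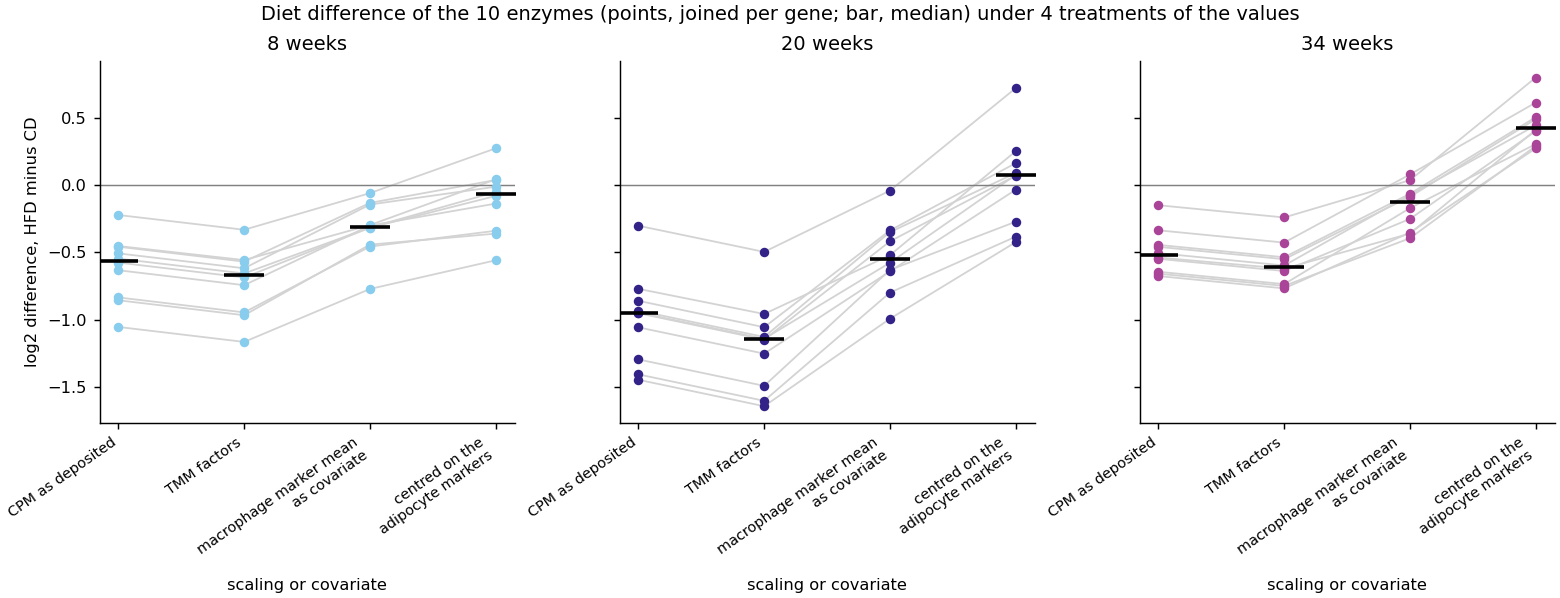
Log2 difference between HFD and CD mice of the 10 enzymes (points, joined per gene; bar, median) at 8, 20 and 34 weeks, with CPM as deposited, with TMM factors, with the macrophage marker mean as a covariate and after centring on the adipocyte markers. The median goes from -0.95 to -1.14, -0.55 and 0.07 at 20 weeks and from -0.52 to -0.61, -0.13 and 0.43 at 34 weeks, where centring moves the median of all genes tested from 0.07 to 1.02 and with it all 10 genes above 0.

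Within groups the 10 genes rose and fell together from mouse to mouse. Over the deviations of the 38 mice from their group means, which share library and scaling, the 45 pairs had Pearson correlations from 0.37 to 0.96 with a median of 0.79, given as a description. The 2 subunits of methylcrotonyl-CoA carboxylase were most alike (0.96), and Ppm1k stood apart from the rest with a median of 0.46 with the others, beside 0.73 to 0.87 for the other 9 genes. Ppm1k also had the fewest reads of the 10 genes, and the part of counting error in its lower correlations was not tested. Outside the list, the genes most like the mean of the 10 were Suclg2 (r = 0.968), a succinyl-CoA ligase subunit, Sdha (0.963), the succinate dehydrogenase flavoprotein, Scp2 (0.961), Hibch (0.951) and Trap1 (0.946). Suclg2 also fell at each time, with differences of -0.83, -1.15 and -0.53 (adjusted p = 0.000262, 1.24e-06 and 0.00723). Marker means on the log2(CPM + 1) scale varied within groups too. In HFD mice of 34 weeks they ran from 10.43 to 11.31 for adipocyte and from 6.97 to 8.41 for macrophage markers. Their part in the correlations was not tested.

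The promoters of these genes were also read for letters they share. RefSeq promoters on GRCm38.p6, from 250 bases before to 50 bases after a start, were on hand for 9 of the 10 genes, with 2 starts each for Bcat2, Bckdhb and Aldh6a1, and Dbt was not among them. CCAAT, searched on both strands, stood in 9 of the 12 promoters and in 7 of 9 genes, against 37.4% of 32851 promoters of all genes. The other searches on both strands were AGGTCA, the nuclear receptor half-site (3 of 12, against 16.3% of all promoters), GGGCGG (3 of 12, 35.7%), CACGTG (1 of 12, 7.15%), and TCAAGGTCA (0.423%), which contains AGGTCA, GCATGCGC (2.71%), TGACGTCA (1.79%) and CCGGAAG (8.86%), each in 0 of 12. These motifs were picked with the results known, and a match is not evidence of binding. The 150 bases before the start are shown, 5′ to 3′ on the strand of the gene, for the correlated leucine branch genes, for Bckdhb and Aldh6a1, and for Bcat2, which had the largest diet difference and no CCAAT in the window. The Bcat2 windows begin at 45570003 and 45571129, inside the gene, which is annotated from 45568967. Bases before that position were not searched. Capitals mark CCAAT or its reverse complement ATTGG.
Ivd, chr2:118861844-118861993, plus strand: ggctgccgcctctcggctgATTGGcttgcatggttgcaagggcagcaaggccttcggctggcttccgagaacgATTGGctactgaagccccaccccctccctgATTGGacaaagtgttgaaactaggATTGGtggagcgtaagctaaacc
Mccc1, chr3:36000679-36000828, minus strand: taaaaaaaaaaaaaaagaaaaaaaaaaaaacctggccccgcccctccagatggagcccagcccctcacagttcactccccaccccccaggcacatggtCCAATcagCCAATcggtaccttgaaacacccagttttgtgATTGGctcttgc
Mccc2, chr13:100015640-100015789, minus strand: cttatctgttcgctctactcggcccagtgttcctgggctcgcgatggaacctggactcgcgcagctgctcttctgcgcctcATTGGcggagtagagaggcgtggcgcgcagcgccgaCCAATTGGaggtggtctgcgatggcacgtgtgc
Bckdhb, chr9:83924987-83925136, plus strand: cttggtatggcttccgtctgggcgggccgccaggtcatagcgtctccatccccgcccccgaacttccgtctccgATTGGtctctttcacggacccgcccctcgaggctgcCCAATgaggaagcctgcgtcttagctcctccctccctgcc
Aldh6a1, chr12:84451025-84451174, minus strand: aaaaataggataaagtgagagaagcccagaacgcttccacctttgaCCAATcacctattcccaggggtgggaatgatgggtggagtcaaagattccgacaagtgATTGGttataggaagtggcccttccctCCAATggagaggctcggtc
Bcat2, chr7:45570003-45570152, plus strand: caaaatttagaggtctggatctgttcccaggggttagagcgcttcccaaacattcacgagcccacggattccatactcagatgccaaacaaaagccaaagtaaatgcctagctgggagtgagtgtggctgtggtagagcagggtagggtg
In these windows Ivd held 4 matches, Mccc1, Mccc2 and Aldh6a1 held 3 each, Bckdhb held 2 and Bcat2 held 0. Of the windows not shown, Ppm1k held 2, Bckdk 1, the second start of Aldh6a1 1, and Bckdha and the second starts of Bckdhb and Bcat2 0 each.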

How the data were processed

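The adipocyte RNA-seq values of 38 mice were analysed. According to the methods, the authors aligned reads to mm10 with STAR, counted them over the union of exons of GENCODE vM2 with featureCounts, discarded genes without an Entrez identifier and applied edgeR's TMM normalization. The deposited values are CPM, 1 column per mouse, in which the authors merged 3 technical replicates (114 labelled samples). Each column summed to 1000000, so no TMM factor was visible, and 100.0% of values were whole multiples of 1 read (0.0646 to 0.108 CPM, tolerance 0.1 reads); the reads recovered this way, 9275711 to 15480388 per mouse, were used in edgeR 4.0.16 as an alternative. No pair among the 103 pairs of mice in a group agreed within sampling noise (the lowest chi-square per degree of freedom was 10.62). The stromal vascular libraries were not analysed here.

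Values were taken as log2(CPM + 1), and 10343 genes with a mean above 2.0 were tested with limma 3.58.1 (R 4.3.3, trended empirical Bayes, 6 groups together, 32 residual degrees of freedom). Fold changes on this scale slightly understate changes of low genes. P-values were two-sided and adjusted over all genes tested for each of 12 comparisons, with 0.05 as the threshold. The scripts were tested on simulated data. All 10 genes are described at each comparison, genes of the lists where a list is given, and the 5 genes outside the list most correlated with its mean. Members, lists and motifs were chosen with earlier results of these data known. Mmut and Adgre1, which the lists name, were not analysed here. Values of 1 list gene are not reported here, although counts over its list include it. The alternatives changed the pseudocount, filter, scaling, test, samples, weights, block, covariate, fold threshold or the mice used. The 5 transcript ratios were chosen after seeing the data; 15 exact permutation tests were run on them, and their p-values are not reported because of that choice. Positions and promoters are RefSeq's on GRCm38, and exon lengths are from GENCODE vM21, which differs from the annotation used for counting.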

Additional observations from a re-analysis of the deposited data

Results flagged for a closer look

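The levels of 10 genes in 6 groups were searched for a mouse far from the rest of its group, by the gap of the highest or lowest mouse to its neighbour as a share of the range (above Dixon's 95% critical value), and 4 of the 60 were found. Chance gives about 1 in 20 in independent groups, whereas these genes are correlated and 3 of the 4 are 1 mouse. HFD mouse 4 of 20 weeks was the highest of 6 for Bckdha (262 CPM), Dbt (104 CPM) and Aldh6a1 (734 CPM), and it remained below every CD mouse of that time. CD mouse 3 of 20 weeks was the highest of 6 for Ppm1k (39.3 CPM). On the log2(CPM + 1) scale, HFD mouse 4 had the highest adipocyte marker mean of its group (11.59 against 10.96 to 11.34). Its macrophage marker mean was the lowest (6.99 against 7.33 to 7.95), as was that of CD mouse 3 in its group (4.25 against 5.28 to 6.89). The part of marker levels in these outliers was not tested. Without any of these mice all 10 genes were still called lower at 20 weeks.

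The diet difference of Aldh6a1 differed between times by an interaction term, being smaller at 34 than at 20 weeks by 0.90 on the log2 scale (adjusted p = 0.0297). Of all genes tested, 10.5% were called in this comparison in either direction. The count of the members called here was 0 without the filter on low values. It changed in 10 of 26 fits with a mouse left out. The mean levels of Aldh6a1 follow. Its mean was 1116 ± 102, 1228 ± 218 and 487 ± 118 CPM in CD mice and 651 ± 215, 471 ± 137 and 346 ± 102 CPM in HFD mice at 8, 20 and 34 weeks.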

How the results depend on the processing

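With a pseudocount of 0.1 or 0.5, a filter at 3.0, TMM or size factors or edgeR, each of the 12 counts stayed within 1.5 times its value. Without a filter the counts of 34 against 8 weeks in HFD mice and of the diet difference at 34 against 20 weeks were 3 and 0. Centred on the adipocyte markers, the diet count was 3 at 8 weeks, all lower. It was 4 at 20 weeks, with Bckdk higher and the rest lower, and 9 at 34 weeks, all higher. The shares of all genes called under this centring are given above with the diet differences. The count of 34 against 20 weeks in CD mice was 3. In HFD mice the counts of 20 against 8, 34 against 8 and 34 against 20 weeks were 4, 8 and 4. For the interactions of 34 against 8 and 34 against 20 weeks they were 7 and 2. Signs turned for Bckdha (0.037, 0.16 and 0.49), Ppm1k (0.042, 0.25 and 0.41) and Bckdk (0.27, 0.72 and 0.80) at 8, 20 and 34 weeks, for Bckdhb (0.075 and 0.29), Mccc1 (0.070 and 0.50) and Mccc2 (0.089 and 0.61) at 20 and 34 weeks, and for Bcat2 (0.27), Dbt (0.40), Ivd (0.30) and Aldh6a1 (0.44) at 34 weeks. With the macrophage covariate the diet counts were 4, 6 and 0, CD counts 1 (20 against 8 weeks) and 3 (34 against 8), HFD counts 0 (20 against 8) and 1 (34 against 8), and Bckdk (0.036) and Mccc2 (0.079) turned at 34 weeks. The causes were not tested. A fit of only the groups compared gave 4 at 34 weeks, 3 for 34 against 8 weeks in HFD mice and 1 for the interaction of 20 against 8 weeks. Array weights gave 3, 3 and 2 within HFD mice and 1, 5 and 8 for the interactions. Shares of all genes called under these weights are not given here, so the counts are not read further. Requiring also a 1.5-fold change left 4 and 3 at 8 and 34 weeks, 3 for 34 against 8 weeks in CD and 0, 2 and 0 within HFD mice, as the added threshold alone requires.

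In 8 of 18 pairs of CD and HFD mice of the same number, deviations correlated above a small positive cut-off. Over all pairs the correlations ran from -0.509 to 0.529. Pairs of different numbers were not compared, so whether same-numbered mice shared a litter, day or batch was not tested. The main fit did not pair them. With the number as a replicate block, the diet counts were 8, 10 and 8. From 8 and from 20 to 34 weeks 3 and 1 genes were called within CD and 1 and 0 within HFD mice. The blocks were set within each time with mouse 1 as the reference, so the comparisons over time were made at mouse 1. They cannot test whether group means changed with time, and no conclusion is drawn from the counts over time.

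Leaving out each mouse gave 7 to 10, 10 to 10 and 5 to 9 genes for the diets at 8, 20 and 34 weeks, 0 to 1, 5 to 8 and 9 to 9 within CD mice (20 against 8, 34 against 8 and 34 against 20 weeks), 1 to 3, 2 to 8 and 1 to 2 within HFD mice, and 0 to 0, 0 to 0 and 0 to 5 for the interactions. Depth limits Ppm1k most, with 87 reads in its lowest mouse.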
